A study of Rattus norvegicus with 48 samples.

Results

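Akr1c2, Akr1b8 and Akr1b10 are 3 aldo-keto reductase genes whose kidney RNA signal differed between rat strains. They were taken by gene symbol from the array annotation, each with 1 probe set, and are 3 of the 7589 genes that could be named. They were selected on their measured strain differences in these same arrays, so their strain levels are described here without a test. Male rats of 4 strains, labelled FL, LF, F and L with no statement of what the letters stand for, were given indole-3-carbinol by gavage at a daily dose of 100 mg per kg for 7 or 10 days, or vegetable oil alone (called day 0 in the labels). The sample labels give an age of 12 weeks and the treatment protocol 12 to 14 weeks. Each of the 12 strain and day groups had 4 whole-transcript arrays of total kidney RNA, 48 in all. The protocol gives 8 rats per group, and the number of rats behind each array is not given in the sources used here, so the spread between arrays may hold less than the spread between animals.

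Aldo-keto reductases are mostly cytosolic enzymes that use NADPH to reduce aldehydes and ketones to alcohols. The Akr1b enzymes include aldose reductase (Akr1b1), which turns glucose into the osmolyte sorbitol in the renal medulla, and relatives that act on lipid-derived aldehydes and, in the case of human AKR1B10, on retinal. The Akr1c enzymes are mainly hydroxysteroid dehydrogenases, and human AKR1C2 inactivates dihydrotestosterone. Indole-3-carbinol, found in cabbages, forms products in the stomach that activate the aryl hydrocarbon receptor, a transcription factor that binds xenobiotic response elements, and several aldo-keto reductases are known targets of the oxidative stress factor Nrf2, which binds antioxidant response elements.

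The promoters of the 3 genes are shown because both factors could be read against them. Each line gives the 250 bases before the transcription start, 5′ to 3′ on the gene's strand, from RefSeq on the GRCr8 assembly, which is a reference rat and none of the 4 strains as sequenced here. Akr1c2 lies on the minus strand at chr17:70717881-70718130, and Akr1b8 and Akr1b10 lie on the plus strand at chr4:63964171-63964420 and chr4:64005382-64005631. Capitals mark a match to the xenobiotic response element core.
Akr1c2: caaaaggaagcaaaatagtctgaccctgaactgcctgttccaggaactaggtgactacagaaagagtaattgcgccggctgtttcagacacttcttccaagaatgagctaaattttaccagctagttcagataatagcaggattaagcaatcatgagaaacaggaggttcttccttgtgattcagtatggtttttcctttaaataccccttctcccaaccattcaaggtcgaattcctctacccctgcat
Akr1b8: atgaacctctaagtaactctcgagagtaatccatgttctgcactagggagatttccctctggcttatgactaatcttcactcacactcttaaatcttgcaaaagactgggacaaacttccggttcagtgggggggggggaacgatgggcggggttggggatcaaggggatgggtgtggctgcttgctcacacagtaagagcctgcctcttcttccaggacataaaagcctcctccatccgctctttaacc
Akr1b10: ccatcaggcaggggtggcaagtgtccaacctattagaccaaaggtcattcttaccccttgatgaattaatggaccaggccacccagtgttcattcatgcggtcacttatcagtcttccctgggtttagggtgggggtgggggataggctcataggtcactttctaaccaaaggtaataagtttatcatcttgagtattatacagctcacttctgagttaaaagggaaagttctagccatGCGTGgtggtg
The core GCGTG, searched on both strands, occurred once, in the Akr1b10 promoter at -11 to -7 from the start. It is a common word, found in 25.9% of 33469 rat promoters of this length. The antioxidant response element TGACNNNGC, found in 10.1% of them, had no match in these 3 windows.

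The array medians lay between 5.66 and 6.06 on the log2 scale, and the correlation between arrays of a group between 0.979 and 0.992. Precision is limited by the 4 arrays per group. Of the 16 kidney segment markers, Umod (uromodulin, of the thick ascending limb) read 12.53 to 13.02 and Slc34a1 (the proximal tubule phosphate transporter) 11.74 to 12.19, and the lowest was Nphs1 of podocytes at 6.33 to 7.09. Of 9 white blood cell markers 0 were higher and 3 lower in F than in L. Over all probe sets 2.44% were higher and 4.88% lower in that pair. The mean of the 9 markers in F was 5.06 to 5.53 on all arrays, against 5.11 to 5.66 in L. Of 8 liver markers 3 were higher and 0 lower in LF than in F. In that pair 4.54% of all probe sets were higher and 3.04% lower. Between F and L 1 liver marker was higher and 1 lower. The liver gene Alb read 2.68 to 3.26, while Cyp2c11 of the same list read 4.8 to 9.66. The FL and F arrays of Cyp2c11 all lay below the LF and L arrays, with a difference of -1.72. The part of these markers in the strain levels of the 3 genes was not tested. The adrenal marker Star read 3.95 to 4.43, and the mean of the 6 adrenal markers was 4.63 to 4.87 on all arrays. The highest of the 6 were Fdx1, at 7.18 to 8.19, and Scarb1, at 6.14 to 6.95. In whole kidney, fewer cells of a type and less RNA per cell cannot be told apart.

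Akr1c2 was high in FL and F kidneys and low in LF and L kidneys on every array. At day 0 it read 6.11, 6.06, 6.0 and 6.03 in FL (mean 6.05 ± 0.05, SD, n = 4), 2.83, 2.32, 2.86 and 2.80 in LF, 5.70, 6.20, 5.68 and 5.14 in F, and 2.49, 2.79, 2.57 and 2.79 in L. The 4 FL and 4 F arrays thus lay above all LF and L arrays before treatment. At day 7 the values were 5.89, 5.42, 4.84 and 5.67 in FL, 2.77, 2.97, 3.00 and 2.71 in LF, 6.15, 5.83, 4.96 and 7.19 in F, and 2.55, 2.92, 3.00 and 2.89 in L. At day 10 they were 5.53, 5.84, 6.05 and 5.91 in FL, 2.61, 2.70, 2.56 and 2.72 in LF, 6.28, 5.74, 5.93 and 6.58 in F, and 2.68, 2.64, 2.47 and 2.56 in L. The same division held on both treated days.

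Over its 12 arrays, Akr1c2 had a median of 5.90 in FL (4.84 to 6.11) and 5.88 in F (4.96 to 7.19), against 2.66 in L (2.47 to 3.00). The median in LF was 2.75, with a range of 2.32 to 3.00. The F mean was 9.53-fold the L mean, and the FL mean 8.23-fold the LF mean. FL and F differed by -0.17 on the log2 scale and LF and L by 0.04, and the arrays of each of these pairs overlapped. The Akr1c2 signal in LF and L was higher than that of only 12.2% to 15.1% of probe sets in each group, and the table has no detection calls, so the folds are ratios of signals and the level in LF and L may be near the floor of the array. Among the 30 probe sets (0.341% of 8797) whose 24 FL and F arrays did not overlap the 24 LF and L arrays, Akr1c2 had the largest difference of the named genes, 3.15. RT1-CE16, a class I histocompatibility gene, followed at 2.85 and Gp2 at 2.16. The largest difference the other way was that of the carboxylesterase gene Ces1e, at -2.82.

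**Figure D1:**
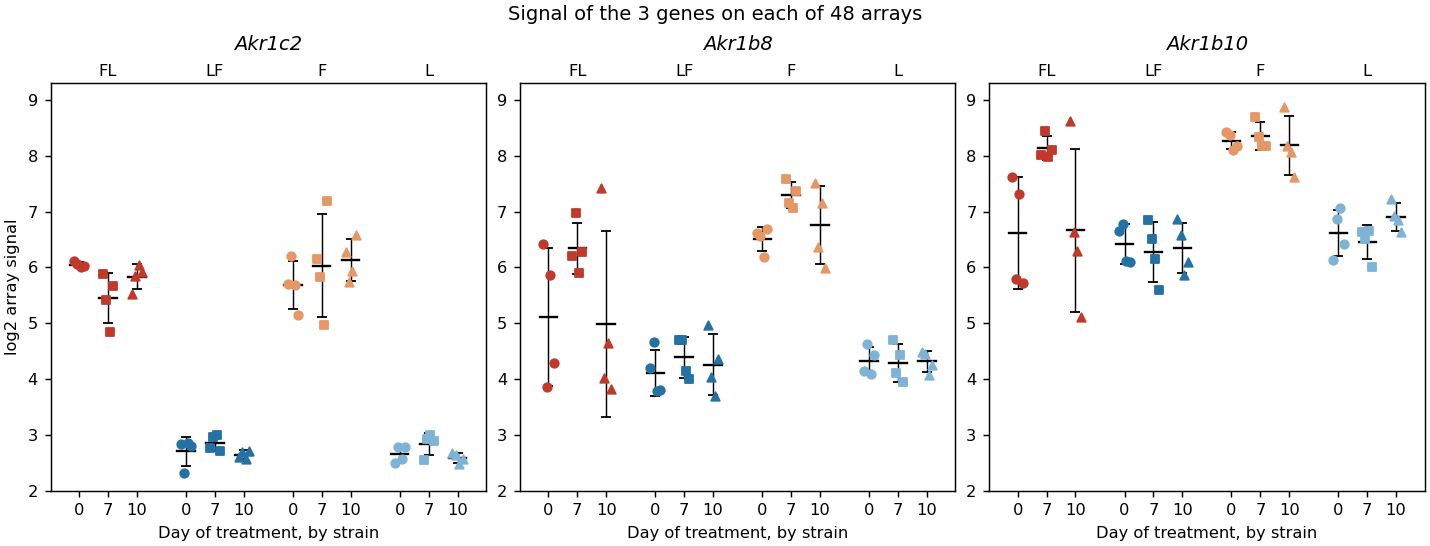
Log2 signal of Akr1c2, Akr1b8 and Akr1b10 on each of the 48 arrays by strain and day, with points for arrays and bars for group means. Akr1c2 splits FL and F from LF and L on every array, while the FL arrays of Akr1b8 and Akr1b10 spread from the F levels to below the lowest L array.

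Akr1b8 was highest in F kidneys, low in LF and L kidneys, and spread over the whole range in FL kidneys. At day 0 it read 6.42, 3.85, 5.87 and 4.28 in FL, 4.19, 4.66, 3.78 and 3.80 in LF, 6.61, 6.56, 6.19 and 6.68 in F, and 4.14, 4.63, 4.09 and 4.43 in L. At day 7 it read 6.21, 6.97, 5.90 and 6.28 in FL, 4.70, 4.70, 4.15 and 4.00 in LF, 7.59, 7.16, 7.06 and 7.36 in F, and 4.70, 4.10, 4.43 and 3.94 in L. At day 10 it read 7.42, 4.01, 4.65 and 3.83 in FL, 4.97, 4.03, 3.69 and 4.35 in LF, 7.51, 6.37, 7.15 and 5.98 in F, and 4.49, 4.44, 4.07 and 4.26 in L. All F arrays lay above all LF and L arrays on each day, and FL did so only at day 7. Over 12 arrays the means were 5.47 ± 1.28 in FL, 4.25 ± 0.42 in LF, 6.85 ± 0.53 in F and 4.31 ± 0.24 in L (SD), which puts F at 5.82-fold L and FL at 2.33-fold LF.

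Akr1b10, the gene next to Akr1b8, had the same order of strain means. At day 0 it read 7.62, 5.80, 7.32 and 5.72 in FL, 6.66, 6.78, 6.11 and 6.10 in LF, 8.43, 8.37, 8.11 and 8.17 in F, and 6.14, 6.86, 7.06 and 6.41 in L. At day 7 it read 8.02, 8.45, 7.98 and 8.11 in FL, 6.84, 6.51, 6.15 and 5.59 in LF, 8.70, 8.34, 8.18 and 8.17 in F, and 6.64, 6.50, 6.66 and 6.0 in L. At day 10 it read 8.62, 6.63, 6.29 and 5.11 in FL, 6.86, 6.58, 5.87 and 6.09 in LF, 8.88, 8.18, 8.06 and 7.62 in F, and 7.23, 6.92, 6.85 and 6.63 in L. F lay above LF and L on every array, with a gap of 0.39 between the lowest F array and the highest L array. F averaged 3.05-fold L and FL 1.73-fold LF.

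Counted over the 3 genes with all days together, all 3 had F arrays wholly above L arrays, as did 0.296% of all probe sets, and all 3 had LF arrays wholly below F arrays, as did 0.273%. Of the 3, 1 had FL arrays wholly above L arrays (0.239% of all probe sets) and 1 above LF arrays (0.205%), in both cases Akr1c2. At day 7 alone all 3 had FL arrays above LF arrays (2.58%) and above L arrays (1.59%). None of the 3 separated FL from F (0.0114% of all probe sets) or LF from L (0.0568%) over all days. These counts describe the choice of the genes and are no evidence for it.

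**Figure D2:**
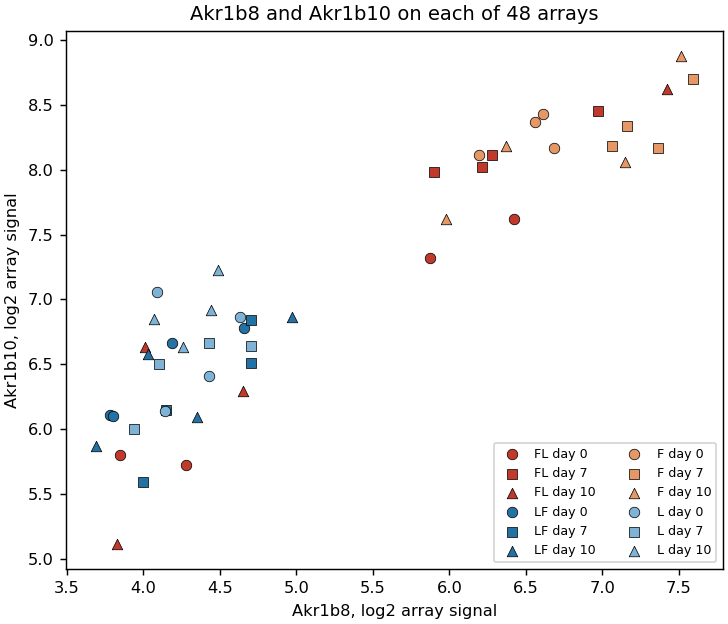
Log2 signal of Akr1b10 against Akr1b8 on the 48 arrays, coloured by strain. The F arrays lie at the high end of both genes, the LF and L arrays at the low end, and the FL arrays in both places.

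In FL the same 5 of 12 arrays were low for both Akr1b genes, namely replicates 2 and 4 at day 0 and replicates 2, 3 and 4 at day 10. No day 7 array was among them. For Akr1b8 these arrays reached at most 4.65 and the other 7 at least 5.87, and for Akr1b10 the limits were 6.63 and 7.32. The gap was 1.22 for Akr1b8, with a next widest gap of 0.55. It was 0.69 for Akr1b10, with a next widest of 0.61, so the division is less clear for Akr1b10. The 7 higher FL arrays lay above all L arrays for both genes. Akr1c2 showed no such division, since all 12 FL arrays lay above all L arrays. The SD over probe sets of the FL arrays, a rough measure of array quality, was 2.29 to 2.50, and its part in the division was not tested.

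The within-day SD of Akr1b8 was 1.23 in FL, 0.448 in LF, 0.445 in F and 0.269 in L, and that of Akr1b10 was 1.03, 0.454, 0.345 and 0.333 in the same order. The median probe set had 0.219 in FL. In FL, 15 probe sets had a within-day SD above 1, and 2 of these stayed below 0.5 in the other 3 strains: those of Akr1b8 and Akr1b10. These limits were set after the values had been seen, so the count is a description. For Akr1c2 the strain with the largest within-day SD was F, at 0.626, against 0.292 in FL.

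The correlation of Akr1b8 with Akr1b10 over the 12 arrays of a strain was positive in LF, F and L, and in none of them did it pass adjustment over the 17 relations tested. In LF, Pearson's r was 0.749 (n = 12 arrays, permutation p = 0.00676, adjusted p = 0.0952), Spearman's rho was 0.75 (permutation p = 0.00623, adjusted p = 0.065), and r without the 2 arrays farthest from the median was 0.701. In F, r was 0.685 (n = 12, permutation p = 0.0112, adjusted p = 0.0952) and rho 0.526 (permutation p = 0.082, adjusted p = 0.349). Without the 2 farthest arrays r in F was 0.406, and leaving them out also narrows the range of Akr1b8. How far the relation in F rests on those arrays was not tested. In L, r was 0.412 (n = 12, permutation p = 0.182, adjusted p = 0.609) and rho 0.385 (permutation p = 0.214, adjusted p = 0.606), with r at 0.276 without the 2 farthest arrays. With the day means removed, r was 0.832 in LF, 0.798 in F and 0.472 in L, given without a test. The permutations took the 12 arrays of a strain as exchangeable across days and replicate numbers. The part of the replicate numbers in these correlations was not tested. In FL the arrays fell into separate clusters for Akr1b8, and for Akr1b10 their division was less clear. No pooled value is given for FL in pairs with an Akr1b gene. Akr1c2 had r between -0.243 and 0.173 with the Akr1b genes in LF, F and L, none of which passed (adjusted permutation p of 0.689 or above).

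Whether indole-3-carbinol changed the 3 genes was tested with limma on all 48 arrays, adjusted over all 8797 probe sets at a threshold of 0.05. Averaged over the 4 strains, at day 7, 0 of 3 passed, against 4.94% of all probe sets, and 1 of 3 had an unadjusted p under 0.05. For the unadjusted threshold the share of all probe sets was not counted. Akr1b8 was 0.57 ± 0.24 higher at day 7 than at day 0 (log2 difference ± SE, 95% interval 0.09 to 1.05, limma adjusted p = 0.165). Taken within each of the 4 replicate numbers, its difference was positive, at 0.46, 0.81, 0.40 and 0.60. Akr1b10 differed by 0.32 ± 0.21 (limma adjusted p = 0.377) and Akr1c2 by 0.02 ± 0.12 (limma adjusted p = 0.931). With the array spread as a covariate, Akr1b8 passed at 0.76 ± 0.23 (limma adjusted p = 0.0396) and Akr1b10 at 0.57 ± 0.17 (limma adjusted p = 0.0453). Without the FL arrays, a setting added after the data were seen, Akr1b8 stood at 0.34 (limma adjusted p = 0.22) and Akr1b10 at -0.08 (limma adjusted p = 0.819).

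At day 10, 0 of 3 passed in that average, against 2.41% of all probe sets, and 0 of 3 had an unadjusted p under 0.05. The differences from day 0 were 0.03 for Akr1c2, 0.07 for Akr1b8 and 0.05 for Akr1b10, each with a limma adjusted p of 0.995. For Akr1b8 the 95% interval ran from -0.41 to 0.54, so a moderate change in either direction was not detectable with these arrays. Over the same arrays Cyp1a1, the classic target of the aryl hydrocarbon receptor, rose by 1.33 ± 0.22 at day 7 (limma adjusted p = 8.83e-05) and by 1.74 ± 0.22 at day 10 (limma adjusted p = 9.14e-07). Hmox1, an Nrf2 target, rose by 1.73 ± 0.43 at day 7 and by 1.88 ± 0.43 at day 10 (limma adjusted p = 0.0119 and 0.0079). By strain, at day 7 Hmox1 differed by 0.13 in FL, 4.07 in LF, 2.90 in F and -0.19 in L, of which LF passed. Cyp1a1 differed at day 7 by 0.68 in FL, 0.51 in LF, 2.73 in F and 1.41 in L, of which F passed, and at day 10 by 2.02, 0.52, 2.97 and 1.45 in the same order, of which FL and F passed. Whether these strain differences in response exceed the error was not tested.

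Within single strains, 0 of 3 genes passed on either day in FL, LF, F or L. The share of all probe sets called at day 7 was 0.159% in FL, 2.26% in LF, 0.671% in F and 0.0114% in L, and at day 10 it was 0.0909% in FL, 0.887% in LF, 0.239% in F and 0.0114% in L. In FL at day 7 all 3 genes had an unadjusted p under 0.05, and 0 of 3 did in the other strains and at day 10. The share of all probe sets under that unadjusted threshold was not counted, so these counts are only a description. Akr1b10 in FL was 1.53 ± 0.41 higher at day 7 than at day 0 (95% interval 0.69 to 2.36, limma adjusted p = 0.245), and all 4 day 7 arrays lay above the 4 day 0 arrays (3.38% of probe sets did not overlap there). It passed with the replicate number as a block (limma adjusted p = 0.0359), and on leaving out FL day 10 replicate 1 (limma adjusted p = 0.0264). Within replicate numbers 1 to 4 the Akr1b10 difference in FL was 0.40, 2.65, 0.66 and 2.39, with the largest values in numbers 2 and 4, whose day 0 arrays were among the low ones. Akr1b8 in FL differed by 1.24 ± 0.47 (limma adjusted p = 0.627) and Akr1c2 by -0.60 ± 0.25 (limma adjusted p = 0.717). In F, Akr1b8 was 0.78 ± 0.47 higher at day 7 with no overlap of arrays, as for 5.68% of probe sets (limma adjusted p = 0.897). These day 0 arrays are shared with the strain differences that chose the genes, and whether the response differed between strains was not tested.

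**Figure D3:**
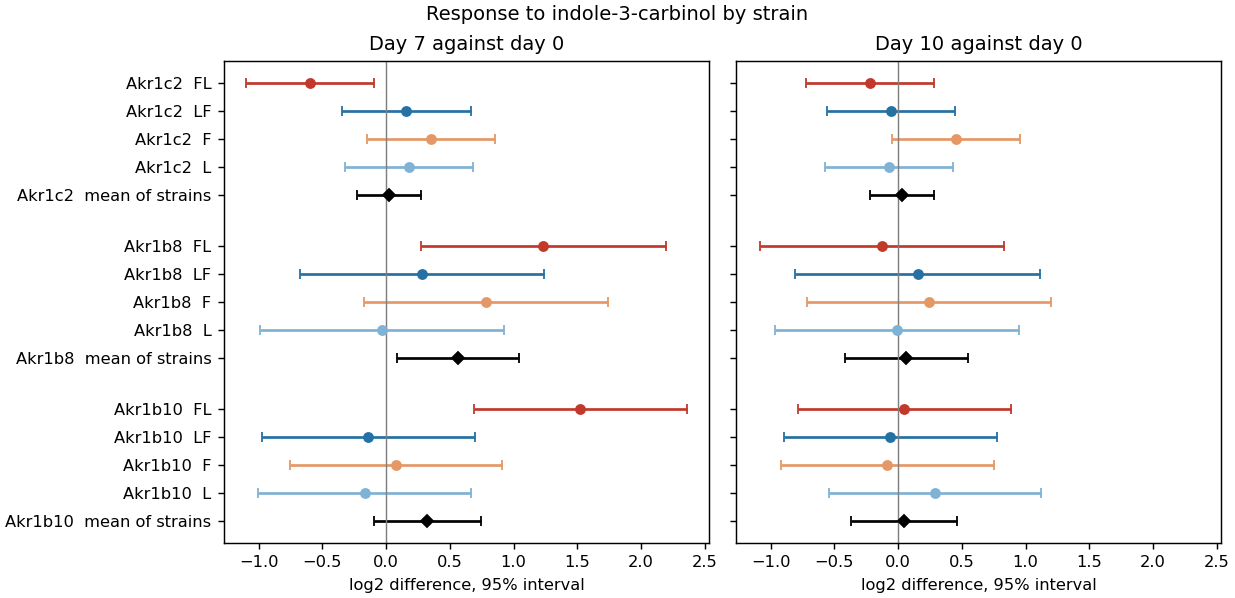
Log2 differences of Akr1c2, Akr1b8 and Akr1b10 between each treated day and day 0, for each strain and averaged over strains, with 95% intervals from limma. The largest point estimate is that of Akr1b10 in FL at day 7, at 1.53. The intervals of LF, F and L include 0 on both days, and those of FL include 0 at day 10.

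The 3 genes were chosen for their strain differences, so smaller differences in their neighbours describe that choice. Between F and L, the measured genes on both sides of the 3 genes differed by less than the 3 genes did. Where the strains were close this did not hold: between FL and F, Akr1c2 differed by -0.17 and its neighbour Akr1e2 by -0.24, and between LF and L, Akr1b8 differed by -0.06 and its neighbour Akr1b1 by -0.22. In RefSeq gene order Akr1c2 is followed by Akr1c12, Akr1c3 and Akr1c14, hydroxysteroid dehydrogenases, and preceded by Akr1e2, a reductase of anhydrofructose. None of these 4 passed in any of the 6 strain pairs: between F and L, for example, Akr1c12 differed by 0.00 and Akr1c14 by 0.03. Over the 48 arrays Akr1c12 read 1.78 to 2.67, Akr1c3 1.84 to 2.24 and Akr1c14 2.54 to 4.48, against 6.55 to 8.13 for Akr1e2. The Akr1c neighbours may thus be near the floor of the array, where a strain difference could go unseen. Akr1b8 and Akr1b10 lie between Akr1b1 and Akr1b7. Akr1b7 differed by 0.07 ± 0.07 between F and L (limma adjusted p = 0.687) and was low throughout, at 2.22 to 2.91. Akr1b1 was 0.36 ± 0.10 lower in LF than in F (difference -0.36, limma adjusted p = 0.0256) and passed in no other pair. Of the more distant genes, the glycolytic gene Pfkp was lower in FL than in L (-0.51, limma adjusted p = 5.59e-06) and in F than in L (-0.31), and Podxl, the podocyte sialomucin, was lower in F than in L (-0.18, limma adjusted p = 0.0251).

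**Figure D4:**
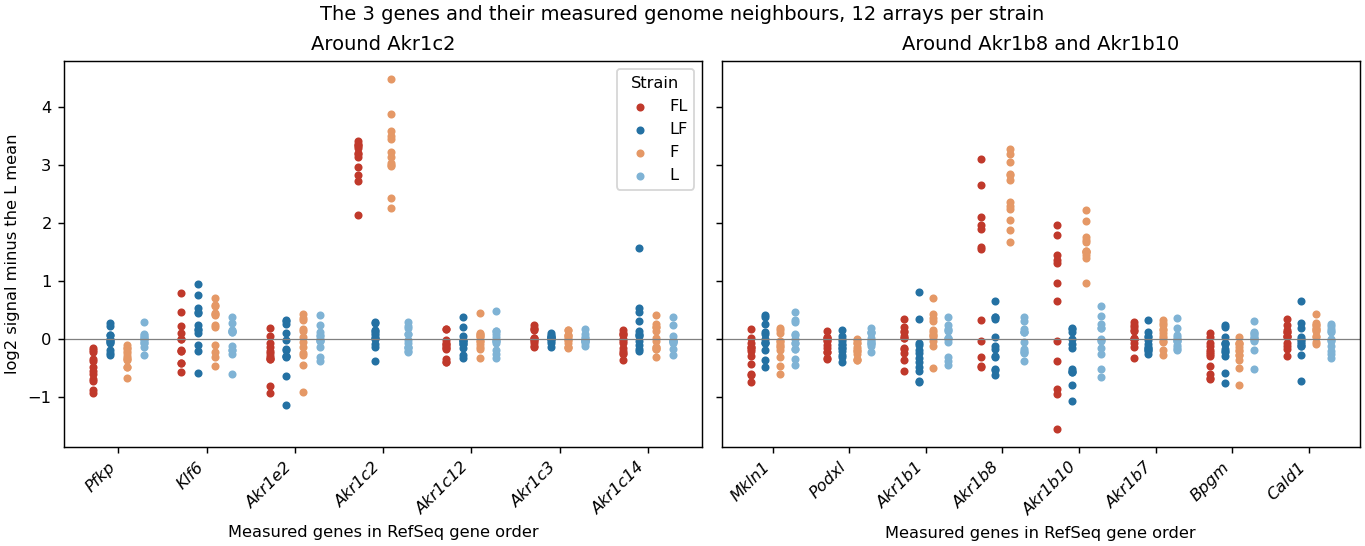
Log2 signal minus the L mean for the members and their measured neighbours in RefSeq gene order, with a point for each of the 12 arrays per strain. As means of the days, the 3 genes differ between F and L by 1.61 to 3.25, and their neighbours by -0.31 to 0.21. The 3 genes were chosen for their strain differences.

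Of the 13 other measured aldo-keto reductase genes, at most 3 passed in any strain pair. Between F and L, 0 were higher and 3 lower, where 7.32% of all probe sets were called. These were Kcnab1, a potassium channel subunit with an aldo-keto reductase fold (-0.71, limma adjusted p = 1.69e-08), Akr7a3, the aflatoxin aldehyde reductase (-0.49, limma adjusted p = 3.30e-05), and Akr1a1, aldehyde reductase (-0.17, limma adjusted p = 0.0276). Between FL and L the same 3 genes were lower, where 9.67% were called. Between FL and LF, Kcnab1 and Akr1a1 were lower (10.7% called), and between FL and F 0 of 13 passed (0.352% called). Kcnab1 and Akr1a1 were higher and Akr1b1 lower in LF than in F (7.57% called), and Akr7a3 was lower in LF than in L (0.693% called).

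**Figure D5:**
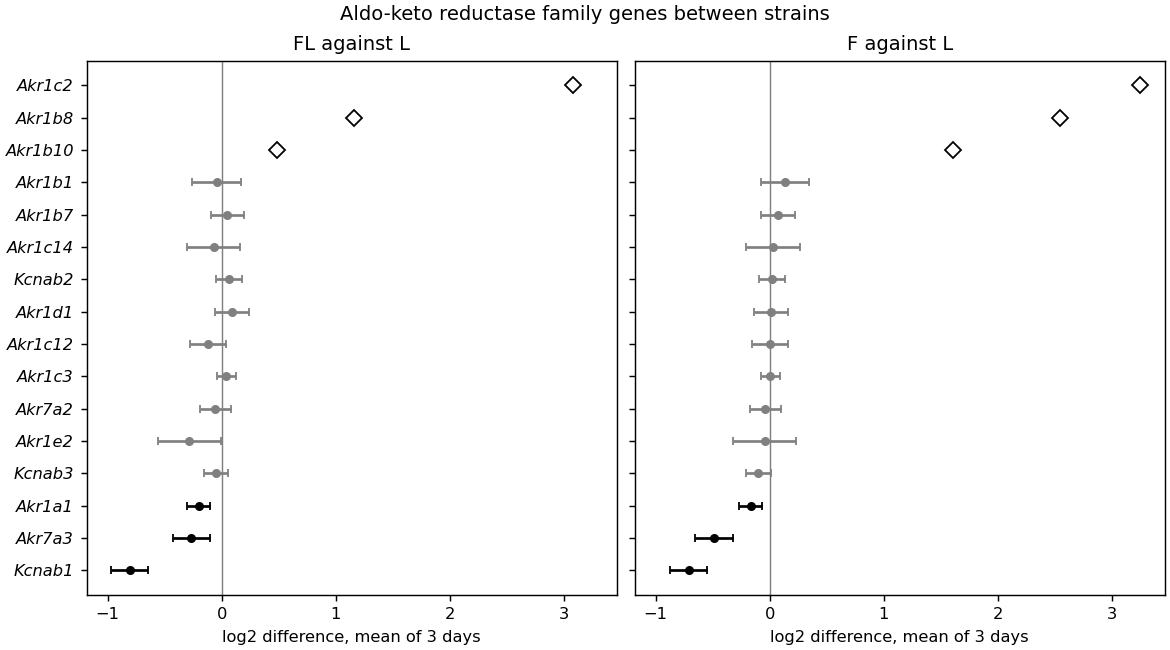
Log2 strain differences, mean of the days, for the measured aldo-keto reductase family. Akr1c2, Akr1b8 and Akr1b10 differ by more than 1.5 between F and L, while the other genes stay within 1.

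Akr1b1 and Kcnab1 were the other family genes that passed with treatment, while markers of tubular injury and of kidney segments also changed. Over all probe sets 1.19% rose and 3.75% fell at day 7, and 1.26% rose and 1.15% fell at day 10. Of the 13 other family genes 0 rose and 2 fell at day 7, 0 rose and 1 fell at day 10, and at day 7 their median difference was -0.04 against -0.03 for all probe sets. Akr1b1 fell by 0.36 ± 0.09 at day 7 (limma adjusted p = 0.0115) and by 0.43 ± 0.09 at day 10 (limma adjusted p = 0.00377). In LF kidneys Akr1b1 read 8.96, 9.20, 8.88 and 8.71 at day 7, against 10.24, 9.33, 9.37 and 9.78 at day 0, with no overlap, as for 8.73% of probe sets. Kcnab1 fell by 0.25 ± 0.07 at day 7 (limma adjusted p = 0.0333). Of the 8 measured genes of the polyol and osmolyte list, 0 rose and 2 fell at day 7, Akr1b1 and the taurine transporter Slc6a6 (-0.23), and 0 rose and 3 fell at day 10, with the fructose transporter Slc2a5 at -0.36. Alongside these falls 8 of 11 tubular injury markers rose and 0 fell on each day, with medians of 0.49 at day 7 and 0.83 at day 10. Havcr1, the kidney injury molecule, rose by 1.77 at day 7 and by 2.87 at day 10. By strain, Havcr1 at day 7 differed by 0.90 in FL, 2.96 in LF, 3.18 in F and 0.04 in L. At day 10 it differed by 2.23, 4.52, 3.07 and 1.67 in the same order, and on both days only LF and F passed. Of the 11 injury markers, 0 rose past the threshold in FL, 7 in LF, 5 in F and 0 in L at day 7. At day 10 the counts were 1, 6, 3 and 0. Of 16 kidney segment markers 0 rose and 8 fell at day 7 and 0 rose and 4 fell at day 10, among them the collecting duct water channel Aqp2 (-0.52 and -0.61). Of 9 white blood cell markers 0 rose and 3 fell at day 7, and 1 rose and 1 fell at day 10. The part of these markers in the falls of Akr1b1 and the osmolyte genes was not tested. Of 17 Nrf2 targets other than the members, 1 rose and 1 fell at day 7, Hmox1 and the glutathione synthesis gene Gclc (-0.14), and 2 rose and 0 fell at day 10. Of 26 steroid and prostaglandin genes 1 rose at day 7, the sulfotransferase Sult1a1 (0.76), and 4 fell, among them the prostaglandin dehydrogenase Hpgd (-0.47), and 1 rose and 1 fell at day 10. Of 15 other carbonyl reductases and dehydrogenases 1 rose and 0 fell at day 7, and 0 rose and 1 fell at day 10. Of 8 aryl hydrocarbon receptor targets 1 rose and 1 fell at day 7, and 1 rose and 0 fell at day 10. Of 6 adrenal markers 0 passed on either day, and of 8 liver markers 1, the fibrinogen gene Fgg, rose on both.

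The genes most like each member over the 12 group means were listed with Pearson's r as a description, since the points share strains and arrays. For Akr1c2 these were RT1-CE16 (r = 0.989 over group means and 0.947 over 48 arrays), Klkb1 (0.987 and 0.911), Apobec1 (0.978 and 0.868), Gstm7 (0.976 and 0.849) and Tmlhe (0.97 and 0.881). They lie on chromosomes 20, 16, 4, 2 and 20, whereas Akr1c2 is on chromosome 17. Akr1b8 and Akr1b10 were most like each other (0.955 and 0.934). The next for Akr1b8 was Prrt1 (0.901 and 0.694) and for Akr1b10 Snx10 (0.871 and 0.658). Near-identical copies limit these readings: the RefSeq table lists 9 protein-coding Akr1c genes and 5 Akr1b8 pseudogenes, and whether the probe sets take signal from such copies was not tested.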

How the data were processed

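Kidney RNA was measured on 48 whole-transcript arrays. The deposited values are log2 signals per probe set. RMA and limma are named, with no version, in the submitters' processing notes. The table held 8797 probe sets and 0 missing values, of which 7603 carried 1 gene symbol, 409 several and 785 none, and 7584 of the 7603 matched RefSeq. Groups came from the sample labels.

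Group means were fitted with limma 3.58.1 in R 4.3.3 (36 residual and 3.69 prior degrees of freedom), adjusted by Benjamini and Hochberg over all probe sets. Correlations used 100000 permutations in Python 3.11.15 with scipy 1.17.1. The scripts were tested on simulated data. In the labels, the array names of each replicate number share a beginning that no other number has. The labels give no other sign of a pairing. Deviations of same-numbered arrays correlated at 0.09 on average (lowest -0.27), against -0.03 for other numbers. The number is a block in an alternative fit, in which 976 probe sets were called at day 7, against 435 without it. The other alternatives changed the normalization, array quality terms, filter, prior, arrays used and single arrays.

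The members and lists were chosen with earlier results of these data known. Named genes are the members, their measured family, up to 4 genes of each other list by smallest p, Cyp1a1, Hmox1 and Havcr1, 3 neighbours on each side and the 5 genes most alike. Limits for the FL spread and genes separating FL and F from LF and L were added after values were seen. Each p measures only the spread between arrays.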

Additional observations from a re-analysis of the deposited data

Results flagged for a closer look

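In LF kidneys at day 0, the lowest Akr1c2 array read 2.32, while the other 3 read 2.80 to 2.86. Its gap to the nearest array was 0.889 of the range of the group, above the 95% critical value of Dixon's test for 4 values. It was the only such array among the 36 groups checked (3 genes in 12 groups), and a test at this level is expected to mark some groups by chance. The value lies in the low range where LF and L overlap.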

How the results depend on the processing

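For the 3 genes, 33 results were recomputed, giving 1887 alternative values. None of the 33 passed in the main fit, so none had a call to lose. Of the alternative values 1880 still did not pass, 7 newly passed in the same direction and 0 passed in the opposite direction. A change of sign below the threshold was counted as no change. An example is Akr1b10 averaged over strains at day 7, at 0.32, and at -0.08 without the FL arrays. These counts thus do not measure how stable the differences are. Averaged over strains at day 7, the array spread as a covariate brought Akr1b8 to 0.76 and Akr1b10 to 0.57, both past the threshold. Akr1b10 in FL at day 7 passed with the replicate block (1.53, limma adjusted p = 0.0359), with the spread covariate (1.78), with array weights (1.80), with the arrays of the 2 days only, and without FL day 10 replicate 1. The replicate block changed no other call of the 3 genes. The count of probe sets called at day 7, 435, became 976 with the replicate block and 1128 with array weights. Leaving out single arrays gave 284 to 720, where 284 is without LF day 0 replicate 2, 720 without L day 0 replicate 4 and 289 without F day 7 replicate 4. The count at day 10, 212, became 407 after a second quantile normalization, 357 with array medians subtracted and 508 with the spread covariate, and 152 to 245 without single arrays. Without the FL arrays the counts were 406 and 187. Among other family genes, Kcnab1 at day 7 no longer passed with the spread covariate (-0.16), nor did Akr7a3 between FL and L with medians subtracted (-0.18), the spread covariate (-0.15) or without the 5 arrays of lowest spread (-0.20), nor Akr1a1 in LF against F (0.14) and F against L (-0.14) without those 5 arrays. The causes were not tested.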
